A study of Homo sapiens with 4 samples.

Results

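The genes described here are 10 that take part in the integrated stress response and in the response to stress of the endoplasmic reticulum (ER): ATF4, DDIT3, ASNS, CHAC1, TRIB3, SESN2, PSAT1, PHGDH, HSPA5 and XBP1. They were found by gene symbol, and each symbol matched 1 row, so they are 10 of the 62696 genes in the count tables. RNA of NT2 cells, a human embryonal carcinoma line also called NTERA-2, was sequenced after removal of ribosomal RNA. A single library came from wild type cells with an empty vector and is called the control below, and 3 libraries were labelled HYDIN2 knockdown, replicates 1 to 3; the labels give all 4 the same serum-containing medium. HYDIN2 is a partial copy of the cilia gene HYDIN, with which it may share reads. The labels do not say how the knockdown was made, how long it lasted or whether the replicates were separate cultures, so the spread between replicates may be technical. The column header of the control table names LacZ, and the other headers name sets of GKAP and KIF27, which differ from the labels.

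In the integrated stress response, kinases that sense amino acid shortage, ER stress, heme shortage or viral RNA phosphorylate the translation factor eIF2alpha. Protein synthesis then falls in general, while the mRNA of the transcription factor ATF4 is translated more, so the amount of ATF4 mRNA is not a direct measure of ATF4 protein. ATF4 raises genes for amino acid synthesis and import, tRNA charging and, in longer stress, cell death. The unfolded protein response uses one of these kinases, PERK (gene EIF2AK3), together with the sensors IRE1 (gene ERN1) and ATF6; IRE1 splices XBP1 mRNA, and spliced XBP1 and ATF6 raise ER chaperones such as HSPA5. Counts per gene do not separate spliced from unspliced XBP1.

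ATF4 binds C/EBP-ATF response elements, with the core TGATGNAA, and ATF6 acts at ER stress response elements, CCAAT and CCACG with 9 bases between them. Both were searched on both strands in RefSeq promoter windows of 300 bases (250 before to 50 after the start of transcription, GRCh38.p14), to show which of the 10 genes carry either motif near their start. All 10 genes had a window. The C/EBP-ATF core was found in 2 of the 10 genes, ASNS and CHAC1, beside 4.46% of all 27305 genes (3.62% of their 35116 windows). The ER stress element was found in HSPA5 and XBP1, beside 0.0916% of all genes (0.0769% of windows). The matched stretches follow, written 5′ to 3′ on the strand of the gene with the motif in capitals; the ASNS stretch lies at chr7:97872458-97872487 on the minus strand, CHAC1 at chr15:40953251-40953280 on the plus strand, HSPA5 at chr9:125241385-125241414 on the minus strand and XBP1 at chr22:28800597-28800626 on the minus strand.
ASNS: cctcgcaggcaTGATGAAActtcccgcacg
CHAC1: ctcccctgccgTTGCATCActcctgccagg
HSPA5: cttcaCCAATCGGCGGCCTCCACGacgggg
XBP1: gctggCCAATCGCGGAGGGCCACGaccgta
The motifs began 68, 209, 66 and 52 bases before the RefSeq start of the window in ASNS, CHAC1, HSPA5 and XBP1; that of CHAC1 was on the opposite strand. These starts differ from those of the GENCODE genes given below, whose spans include the whole ASNS and CHAC1 stretches and the last base of the XBP1 stretch. A match of letters is a description and does not show binding.

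The tables summed to 25181737 counts in the control, 62904698 in replicate 1, 61627449 in replicate 2 and 28552070 in replicate 3. HYDIN2 had 12 counts in the control and 150, 112 and 11 in replicates 1, 2 and 3, or 0.4999, 2.41, 1.88 and 0.352 CPM scaled to library size as below. The targeted gene was thus higher than in the control in replicates 1 and 2, which goes against their label, and every direction below is that of libraries labelled knockdown. Replicate 3 stood apart from replicates 1 and 2: among the 10 genes, the largest log2 difference between replicates 1 and 2 was 0.17, for PSAT1, while replicate 1 differed from replicate 3 by up to 3.15, for TRIB3. Values are therefore given for each library. Replicates 1 and 2 were also the most deeply sequenced libraries and those with the most HYDIN2 counts. DDIT3, TRIB3, CHAC1, SESN2, ASNS, PSAT1 and XBP1 were highest in these libraries, so for them depth and HYDIN2 cannot be told apart. ATF4, HSPA5 and PHGDH did not follow this order. Of 10 markers of embryonal carcinoma cells, among them POU5F1, SOX2, NANOG and LIN28A, all were counted in all 4 libraries. Neural and mesenchymal markers were counted too, at the lower summed levels given below. In replicate 3, 5 of the 10 embryonal carcinoma markers were at least 2-fold below the control, beside 15.9% of all genes. Levels are CPM, counts scaled to a common library size with the trimmed mean of M-values (TMM). Differences are in log2 CPM with a prior count of 2. Ratios carry a 95% exact binomial interval that covers counting error only, computed on counts divided by 2 because both reads of a pair may have been counted. In bulk RNA, fewer cells with a transcript and less transcript per cell cannot be told apart.

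ATF4 mRNA was near 50% of the control level in all 3 labelled knockdown libraries. ATF4 (ENSG00000128272.18; chromosome 22, 39519695 to 39522685, plus strand; this and the positions below are from GENCODE 29 on GRCh38) was at 645 CPM in the control and at 320, 334 and 339 CPM in replicates 1, 2 and 3. The 3 labelled knockdown libraries lay close together and far below the single control. The ratios were 0.496 (0.481 to 0.511), 0.517 (0.502 to 0.533) and 0.526 (0.508 to 0.545). In log2 the difference averaged -0.96 ± 0.04 (SD, n = 3), and with trends on transcript length and GC content removed the values were -0.70, -0.69 and -0.51. ATF4 thus had the smallest spread between replicates of the 10 genes, yet it missed a rule of 2-fold in each library, which only replicate 1 met.

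**Figure D1:**
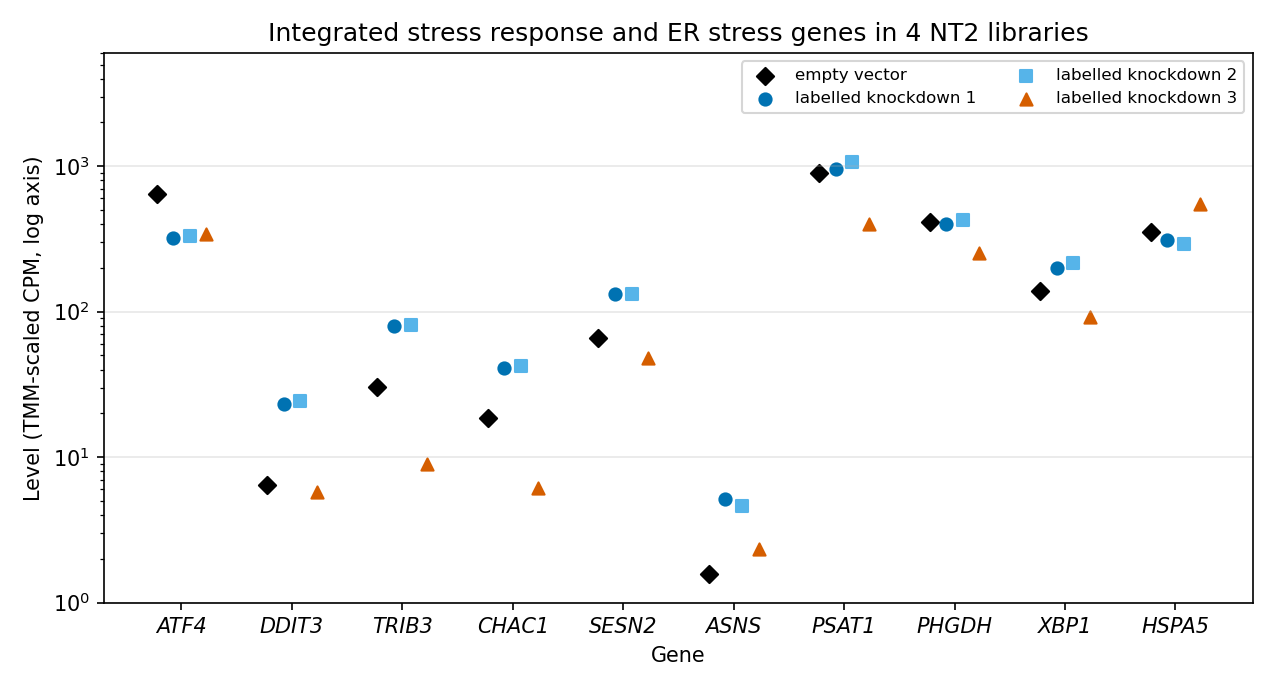
Level of each gene (vertical axis, TMM-scaled CPM on a log axis) in the 4 libraries (diamond, empty vector control; circle, square and triangle, labelled knockdown replicates 1, 2 and 3). ATF4 was 645 CPM in the control and 320 to 339 CPM in the others, while TRIB3 was 30.4 CPM in the control, 79.7 and 80.8 CPM in replicates 1 and 2 and 8.93 CPM in replicate 3.

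DDIT3, TRIB3 and CHAC1, all targets of ATF4, were more than 2-fold above the control in replicates 1 and 2 but not in replicate 3. DDIT3 encodes CHOP, a transcription factor linked to cell death (ENSG00000175197.13; chromosome 12, 57516588 to 57521737, minus strand). It was at 6.46 CPM in the control and at 23.2, 24.1 and 5.79 CPM in replicates 1, 2 and 3. Its ratios were 3.59 (2.85 to 4.63), 3.74 (2.97 to 4.82) and 0.897 (0.655 to 1.23). Replicates 1 and 2 were high, and in replicate 3 no difference from the control was detectable at this depth. DDIT3 overlaps 4 annotated genes, MARS1 and MBD6 on the other strand and MIR616 and ENSG00000285133 on its own strand. ENSG00000285133 had 0 counts in all 4 libraries. The strand setting of the counting is not given in the sources used here, and how shared reads were counted was not tested, so the counts of DDIT3 are uncertain.

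TRIB3 encodes a pseudokinase that is raised by ATF4 and CHOP and inhibits AKT signalling (ENSG00000101255.12; chromosome 20, 362835 to 397559, plus strand). Its counts were 731 in the control and 4961, 4820 and 279 in replicates 1, 2 and 3, or 30.4, 79.7, 80.8 and 8.93 CPM. The ratios to the control were 2.62 (2.35 to 2.93), 2.65 (2.38 to 2.97) and 0.293 (0.239 to 0.357). The control thus lay between replicate 3 and the other replicates, and TRIB3 in replicate 1 was 8.92 times its level in replicate 3. With its log2 range of 3.17 over the 4 libraries TRIB3 was the most variable of the 10 genes.

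CHAC1 encodes an enzyme that degrades glutathione (ENSG00000128965.13; chromosome 15, 40952962 to 40956519, plus strand). Its levels were 18.7 CPM in the control and 40.9, 42.1 and 6.18 CPM in replicates 1, 2 and 3. As for TRIB3, replicates 1 and 2 were high, the control was between, and replicate 3 was low. The ratios were 2.18 (1.90 to 2.53), 2.25 (1.95 to 2.61) and 0.330 (0.257 to 0.420).

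SESN2 encodes a sestrin that restrains mTORC1 when leucine is short and is also a target of p53 (ENSG00000130766.5; chromosome 1, 28259527 to 28282491, plus strand). It was at 65.7 CPM in the control and at 132, 132 and 48.4 CPM in replicates 1, 2 and 3. In log2, replicates 1 and 2 lay 1.00 and 1.01 above the control, with replicate 1 just under 2-fold and replicate 2 just over it before rounding. Replicate 3 lay below, with a ratio of 0.736 (0.665 to 0.814).

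Genes of amino acid synthesis did not share one pattern. ASNS encodes asparagine synthetase (ENSG00000070669.17; chromosome 7, 97852118 to 97872542, minus strand). Its counts were 38 in the control and 322, 277 and 73 in replicates 1, 2 and 3, or 1.58, 5.17, 4.64 and 2.34 CPM. The ratios were 3.27 (2.03 to 5.57), 2.93 (1.80 to 5.00) and 1.48 (0.813 to 2.69). Replicates 1 and 2 were high, and the interval of replicate 3 included 1. Per kilobase of transcript, ASNS had the lowest level of the 10 genes in every library. On the same strand the annotated gene ENSG00000284707 spans it, with 8, 17, 16 and 26 counts in the 4 libraries. The pseudogene ASNSP1 had 24, 104, 167 and 16 counts. Whether reads that fit more than one of these genes were counted for ASNS was not tested, so its level is uncertain.

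PSAT1 and PHGDH encode enzymes of serine synthesis; PHGDH makes the first step and PSAT1 the next. PSAT1 (ENSG00000135069.14; chromosome 9, 78297143 to 78330093, plus strand) was at 896 CPM in the control and at 955, 1072 and 399 CPM in replicates 1, 2 and 3. Replicates 1 and 2 were near the control, with ratios of 1.07 (1.04 to 1.09) and 1.20 (1.17 to 1.22), and replicate 3 was low at 0.445 (0.431 to 0.459). PHGDH (ENSG00000092621.13; chromosome 1, 119648411 to 119744226, plus strand) had 414, 401, 429 and 251 CPM in the same order. Its ratios were 0.970 (0.938 to 1.00), 1.04 (1.00 to 1.07) and 0.607 (0.582 to 0.633), so replicate 3 was again the low library. The PHGDH direction in replicates 1 and 2 changed with the scaling, from -0.10 to 0.05 and from -0.01 to 0.14 in log2.

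The ER genes XBP1 and HSPA5, which both carry the ER stress element shown above, differed from the control in opposite directions in every labelled knockdown library. XBP1 (ENSG00000100219.17; chromosome 22, 28794555 to 28800597, minus strand) was at 139 CPM in the control and at 200, 216 and 91.9 CPM in replicates 1, 2 and 3, so replicates 1 and 2 were high and replicate 3 low. Its ratios were 1.44 (1.37 to 1.52), 1.55 (1.47 to 1.64) and 0.661 (0.616 to 0.710). HSPA5, the chaperone BiP (ENSG00000044574.9; chromosome 9, 125234853 to 125241330, minus strand), had 350, 312, 294 and 554 CPM in the same order. It was the reverse of XBP1, lowest in replicate 2 and highest in replicate 3. Its ratios were 0.890 (0.858 to 0.923), 0.838 (0.807 to 0.869) and 1.58 (1.52 to 1.64).

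**Figure D2:**
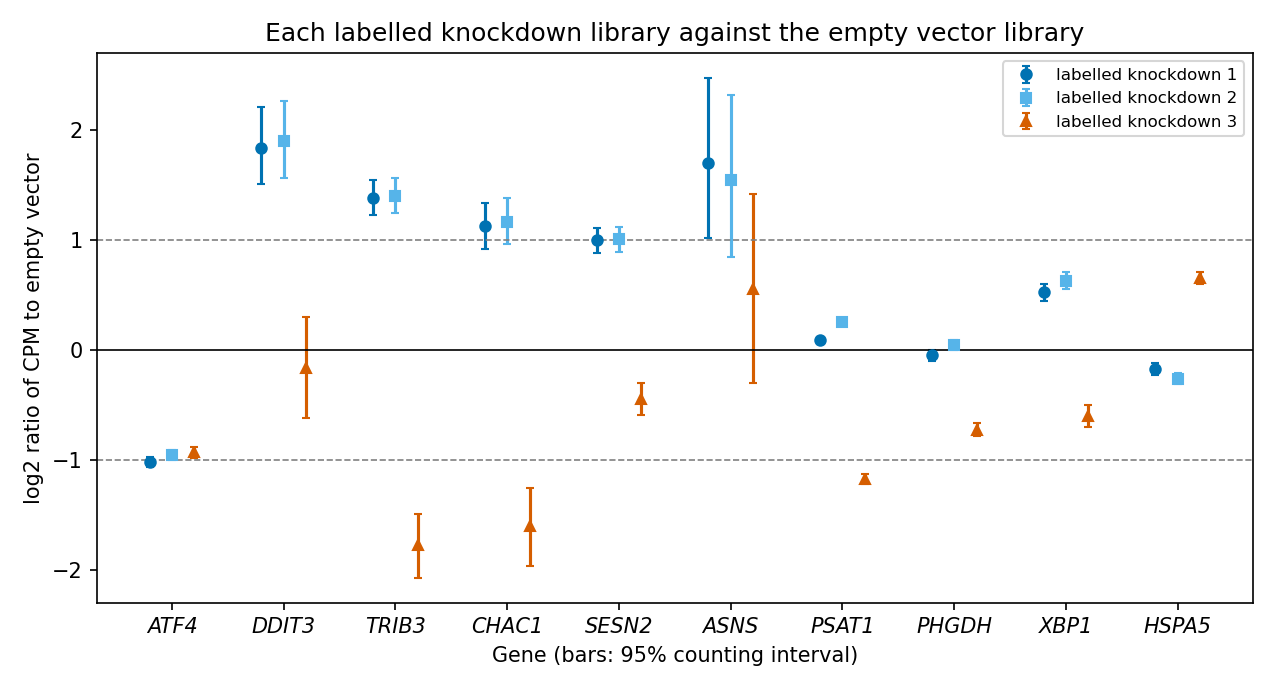
The log2 ratio of CPM to the control (vertical axis) for each gene in labelled knockdown replicates 1 (circle), 2 (square) and 3 (triangle); bars are 95% counting intervals, the solid line is no difference and dashed lines are 2-fold. The 3 libraries coincide for ATF4, replicate 3 lies far below the others for TRIB3 and CHAC1, and HSPA5 is the gene in which replicate 3 lies above 0 and replicates 1 and 2 below it.

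With 1 control library there is no replicate check on that side, and a gene was counted as changed when it lay at least 2-fold from the control in the same direction in each labelled knockdown library. None of the 10 genes was higher by this rule, beside 3.66% of 15880 genes tested, and none was lower, beside 2.72%. These shares are 581 higher and 432 lower genes; with scaling to total counts alone they were 734 and 312, and still none of the 10. All 10 genes passed the filter of a mean of 1 CPM. In single libraries, 4 of the 10 were at least 2-fold higher in replicate 1 (beside 11.3% of all genes), 5 in replicate 2 (beside 10.4%) and 0 in replicate 3 (beside 11.3%). At least 2-fold lower were 1 in replicate 1, ATF4 (beside 7.50%), 0 in replicate 2 (beside 6.70%) and 3 in replicate 3, TRIB3, CHAC1 and PSAT1 (beside 15.9%). DDIT3, TRIB3, CHAC1 and ASNS were 2-fold higher in both replicates 1 and 2, beside 9.55% of all genes, and none was 2-fold lower in both, beside 5.49%, so leaving out replicate 3 takes the count of higher genes from 0 to 4. DDIT3, TRIB3 and CHAC1 were in addition 2-fold higher there than in replicate 3, beside 3.93%, and none was lower in that way, beside 1.18%. A rule of 1.5-fold in each library was met by 1 of the 10, ATF4 lower, beside 9.62% of all genes, and a 2-fold mean difference by DDIT3 and ASNS, both higher, beside 8.53%. When the larger libraries were thinned to the total of the control, 4, 4 and 0 of the 10 were at least 2-fold higher in replicates 1, 2 and 3. Of the 15890 genes tested there, 1648, 1493 and 1772 were.

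Replicates 1 and 2 had a median log2 difference of 0.76 and 0.82 over the 10 genes, and replicate 3 one of -0.66, beside 0.03, 0.05 and -0.15 over all genes tested. The mean log2 difference over the 3 libraries exceeded its SD in ATF4, DDIT3 (1.19 ± 1.17) and ASNS (1.25 ± 0.61). In the other 7 genes it was smaller than its SD, as for TRIB3 (0.34 ± 1.82) and CHAC1 (0.23 ± 1.58). edgeR's quasi-likelihood test with Benjamini-Hochberg adjustment, which sets 1 library against the spread of the other 3 and so does not compare the conditions, called 0 of the 10 genes and 0.00% of 26029 genes, of which 3023 had an unadjusted p under 0.05. Adjusted p ran from 0.358, for ATF4, to 0.934, for PSAT1, and ATF4 was the gene of the 10 with an unadjusted p under 0.05. DESeq2's Wald test called 0 of the 10, with 3 at an unadjusted p under 0.05, beside 0.650% of 41692 genes. Without replicate 3, edgeR called 8 of the 10, beside 44.7% of all genes; that fit takes its spread from replicates 1 and 2 alone.

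**Figure D3:**
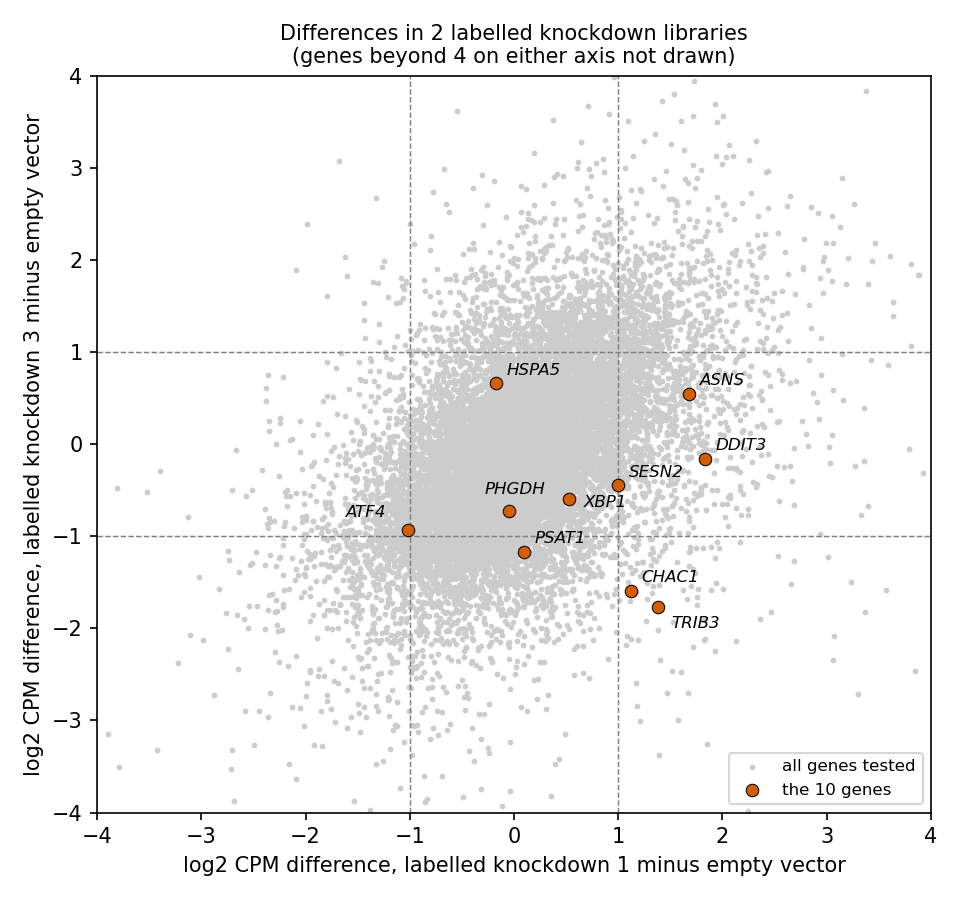
The log2 CPM difference from the control in labelled knockdown replicate 1 (horizontal axis) against that in replicate 3 (vertical axis), for the tested genes within 4 of 0 on both axes (grey) and the 10 stress genes (orange, named); dashed lines are 2-fold. Both axes subtract the same control, so a shared tilt is built in; TRIB3 (1.39 and -1.76) and CHAC1 (1.12 and -1.59) lie at the lower right, and ATF4 (-1.01 and -0.93) at the lower left.

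Levels of different genes were compared per kilobase of the longest annotated transcript. On this scale, averaged over replicates 1 to 3, the level was highest for PSAT1, at 370 ± 164.5 CPM per kb (SD, n = 3), and next for ATF4, at 164 ± 4.985. PHGDH (113 ± 30.1), HSPA5 (98.9 ± 37.1) and XBP1 (77.9 ± 31.1) followed, each within 1 SD of its neighbour in this group. SESN2 (30.1 ± 14.0), TRIB3 (22.6 ± 16.5), DDIT3 (16.6 ± 9.67) and CHAC1 (16.1 ± 11.02) formed a lower group whose neighbours also lay within 1 SD of each other. ASNS was last at 1.72 ± 0.640, a level that is uncertain because of the overlapping gene and the pseudogene named above. In the control the order was the same except that CHAC1, at 10.1 CPM per kb, was above DDIT3, at 6.05.

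The genes with a pattern most like that of TRIB3 over the 4 libraries were named by the smallest distance between mean-centred log2 CPM, among 14641 genes outside the lists. CCNA1 (a germ cell cyclin) was nearest, with 1.33 CPM in the control and 3.28, 3.02 and 0.320 CPM in replicates 1, 2 and 3. CXCL8 (the chemokine interleukin-8) came next, with 2.96, 9.20, 9.21 and 0.960 CPM. GOLT1A, LAMA3 and ADRA1A followed, each at most 5.01 CPM in any library. Among the 10 genes CHAC1 was closest to TRIB3, with 19 of the 14641 genes nearer, while 10467 were nearer than ATF4. With 4 libraries such likeness is a description.

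Other genes of the pathway were taken from lists. Among 9 tested basic leucine zipper factors that pair or act with ATF4, none passed the 2-fold rule in all 3 libraries, but 5 were 2-fold higher in both replicates 1 and 2, beside 9.55% of all genes: ATF3, ATF5, CEBPB, CEBPG and NFE2L1, named after their values were seen. ATF5, a factor whose mRNA is like that of ATF4 translated more when eIF2alpha is phosphorylated, was at 12.4 CPM in the control and at 65.7, 73.3 and 14.1 CPM in replicates 1, 2 and 3. ATF3, a stress-induced repressor, had 56.9, 165, 165 and 36.4 CPM in the same order. NFE2L2, with the highest CPM of the list, had 200.5, 274, 281 and 209 CPM. The list median was 1.22, 1.16 and -0.13 in the 3 replicates. In replicates 1 and 2, where ATF4 itself lay below the control, 9 of 9 lay above it, and 4 of 9 did in replicate 3. Of all 15880 genes tested, 8154, 8365 and 6868 lay above the control in replicates 1, 2 and 3.

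Of 20 genes for amino acid synthesis and import, none passed the rule in all 3 libraries, and 7 were 2-fold higher in replicates 1 and 2, beside 9.55% of all genes. These were SLC7A11, SLC3A2, SLC7A1, SLC1A4, SLC6A9, ALDH1L2 and PCK2, again named after their values were seen; 5 of them are amino acid transporters. SLC7A11, the cystine transporter, was at 41.0 CPM in the control and at 364, 358 and 81.1 CPM in replicates 1, 2 and 3, and its log2 difference of 0.98 in replicate 3 passed 2-fold under 3 of 7 scalings and corrections. ALDH1L2, a mitochondrial folate enzyme, had 23.6, 101, 98.5 and 19.8 CPM. SLC7A5, a leucine importer with the highest CPM of the list, had 416, 663, 611 and 405.5 CPM. SHMT2 and MTHFD2, mitochondrial enzymes of serine and folate metabolism also chosen after their values were seen, were like PSAT1 lowest in replicate 3: SHMT2 had 394, 461, 513 and 175 CPM and MTHFD2 had 270, 297, 306 and 102.5 CPM. The list median was 0.76, 0.68 and -0.23.

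Of 14 genes of cytosolic tRNA charging none passed the rule in all 3 libraries and none reached 2-fold in both replicates 1 and 2. In replicates 1 and 2, 12 and 13 of them lay above the control, beside 8154 and 8365 of 15880 genes, and 1 of 14 did in replicate 3, beside 6868. GARS1, the glycine enzyme, with the highest CPM, was at 695 CPM in the control and at 959, 1003 and 515 CPM in the replicates. Their median was 0.45, 0.47 and -0.47. Of the 11 with a promoter window, 7 held the C/EBP-ATF core, beside 4.46% of all genes, as did 5 of 13 amino acid genes. Among 11 tested growth and death genes the median was 0.90, 0.94 and -0.46, none passed in all 3 libraries and 4 were 2-fold higher in replicates 1 and 2, beside 9.55% of all genes (VLDLR, STC2, GADD45A and BBC3, named after their values were seen). RHEB, an activator of mTORC1 with the highest CPM of that list, had 203, 143, 155 and 98.25 CPM. FGF21, a hormone gene induced by ATF4 that was too low to be tested, had 0 counts in the control and in replicate 3 and 103 and 60 counts in replicates 1 and 2. With the control set to a floor of 3 counts, 0.125 CPM, FGF21 was at 13.2 times this floor in replicate 1 and 8.04 times in replicate 2. These ratios carry no counting error and the floor was not divided by 2 for read pairs, so they are not lower bounds.

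Upstream of ATF4, 15 genes for eIF2alpha kinases, phosphatase subunits and the eIF2 and eIF2B complexes had a median of -0.25, -0.22 and -0.51. EIF2S2, the beta subunit of eIF2, fell in all 3 libraries, from 295 CPM to 122, 135 and 107 CPM, and was 2-fold lower under all 7 scalings and corrections. It was the 1 of the 15 that passed the rule, beside 2.72% of all genes that were lower. PPP1R15A (GADD34), an inducible subunit of the eIF2alpha phosphatase, was at 15.8 CPM in the control and at 62.4, 57.9 and 18.5 CPM in the replicates. It was the 1 of the 15 that was 2-fold higher in both replicates 1 and 2, beside 9.55% of all genes. EIF2AK3, the kinase PERK, and PPP1R15A were named after their values were seen; EIF2AK3 had 18.0, 37.3, 34.6 and 32.7 CPM. Among the 7 UPR sensors and their proteases none passed in all 3 libraries, and their median was 0.67, 0.66 and 0.03. In both replicates 1 and 2, 1 of the 7 was 2-fold higher, beside 9.55% of all genes. This was ERN1, named after its values were seen, with 4.21, 9.38, 10.05 and 5.25 CPM. ATF6, with the highest CPM, had 136, 216, 214 and 130 CPM.

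The ER chaperones and foldases had medians near those of all genes in replicates 1 and 2. Of 16 tested, none passed in all 3 libraries and none was 2-fold higher in any of them, and their median was 0.07, -0.01 and 0.09. HSP90B1, the ER member of the HSP90 family and the gene of the list with the highest CPM, was at 751 CPM in the control and at 907, 863 and 944 CPM in replicates 1, 2 and 3. SDF2L1, an ER stress-induced chaperone cofactor named after its values were seen, was 2-fold lower in replicates 1 and 2, with 4.42, 1.25, 1.44 and 2.27 CPM. HYOU1 and DNAJC3, also chosen after their values were seen, lay above the control in all 3 libraries without reaching 2-fold: HYOU1 had 128, 240.2, 225 and 221 CPM and DNAJC3 had 56.9, 108, 100.2 and 79.6 CPM. Of the 16 with a promoter window, 5 held the ER stress element, beside 0.0916% of all genes: CALR, CANX, CRELD2, HSP90B1 and PDIA6. In ER-associated degradation and translocation, 17 genes had a median of 0.20, 0.24 and 0.06, and none passed, although EDEM3, named after its values were seen, did under 2 of 7 scalings and corrections. SSR3, a subunit of a complex at the translocon, had the highest CPM of the list, with 605, 454, 490 and 406 CPM.

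**Figure D4:**
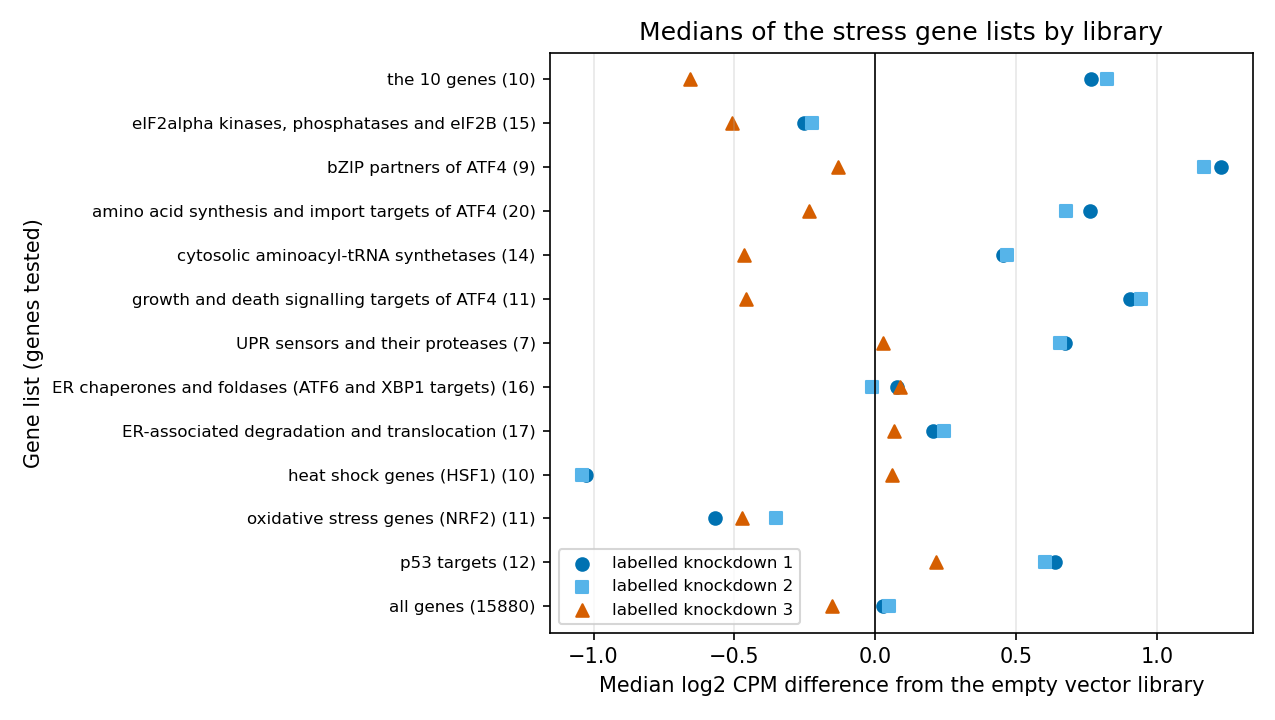
Median log2 CPM difference from the control (horizontal axis) over the tested genes of each list (vertical axis, number tested in brackets) in labelled knockdown replicates 1 (circle), 2 (square) and 3 (triangle). The lists of ATF4 partners and targets and of tRNA synthetases lie to the right of 0 in replicates 1 and 2 and to the left in replicate 3, the ER chaperones lie near 0 in all 3, and the heat shock genes are at -1.03, -1.04 and 0.06.

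Markers of cell identity also differed between the libraries. Of 10 markers of embryonal carcinoma cells all were counted in each library, with a summed level of 7157 CPM in the control and 7285, 7521 and 4301 CPM in replicates 1, 2 and 3. In replicates 1, 2 and 3, 5, 5 and 1 of the 10 lay above the control, beside 8154, 8365 and 6868 of 15880 genes. NANOG, chosen after its values were seen, had 502, 820, 817 and 323 CPM. DNMT3B was the 1 of the 10 that passed the rule, lower, beside 2.72% of all genes. It fell from 795 CPM to 340, 350 and 349 CPM, under 6 of 7 scalings and corrections, and L1TD1 met the rule, also lower, under 2. For 10 neural markers the sums were 192, 369, 347 and 323 CPM, and 2 of the 8 tested rose, PAX6 and MAP2, beside 3.66% of all genes. PAX6 was at 0 counts in the control and NEUROD1 in replicates 2 and 3. For 10 markers of fibroblasts and mesenchyme the sums were 157, 334, 307 and 245 CPM. Here 3 of the 8 tested rose, POSTN, PDGFRB and PRRX1, beside 3.66% of all genes. This list was not uniform: COL3A1, chosen after its values were seen, had 4.04, 0.739, 0.570 and 6.21 CPM, and LUM had 16.2, 23.2, 24.3 and 9.12 CPM. DCN was at 0 counts in every library but replicate 2, and FAP in the control and replicate 1. PAX6, POSTN and PRRX1 kept the call under all 7 settings, and MAP2 and PDGFRB under 6. The part of cell identity in the stress gene values was not tested. That of sequencing depth and of transcript length was not tested beyond thinning and trend removal. With the larger libraries thinned to the control total, the mean log2 difference was -0.99 for ATF4, 1.20 for DDIT3 and 0.33 for TRIB3. Without thinning it was -0.96, 1.19 and 0.34. Longer transcripts lay higher against the control: over 15485 genes, which share that control and are not independent replicates, Spearman's rho with length was 0.347, 0.298 and 0.460 in replicates 1, 2 and 3. With length and GC trends removed, TRIB3 was at 1.65, 1.65 and -1.48 and DDIT3 at 2.16, 2.13 and 0.37, so DDIT3 in replicate 3 changed direction.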

How the data were processed

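Ribosomal RNA was removed and stranded libraries were built by the dUTP method, per the labels' protocols. The authors deposited raw counts per gene, 1 table per library; the submitters' processing notes name STAR 2.7.11b, featureCounts 2.0.6, DESeq2 and hg38, while the annotation, strand setting and treatment of read pairs are not given in the sources used here. Between 65.2% and 68.0% of nonzero counts were even.

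Counts were scaled with TMM factors of edgeR 4.0.16 (R 4.3.3) over genes kept by filterByExpr: 0.953 for the empty vector and 0.990, 0.969 and 1.09 for replicates 1, 2 and 3. Genes entered with a mean of the group mean CPMs of at least 1. The rule was a log2 CPM difference of at least 1 (prior count 2) in each labelled knockdown library. Named were the 10 genes, up to 2 higher and 2 lower passing genes of each list by their smallest difference, else its most abundant gene. Coordinates and lengths came from GENCODE 29, matched by identifier for 58225 of 62696 genes; promoters came from RefSeq. The rule and edgeR's test were tested on simulated data. There all labelled knockdown libraries shared the same changes, while in these data replicate 3 stood apart. Members and lists were chosen with earlier results of these data known. Alternatives included DESeq2 1.42.0, voom in limma 3.58.1, other scalings, filters, prior counts and folds, thinning, omitted replicates and lowess trend removal (span 0.3).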

Additional observations from a re-analysis of the deposited data

How the results depend on the processing

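No paired analysis was possible because a single control carries no number to pair on. The number of the 10 genes called was 0 under 12 of 15 alternatives, TMM over genes with a mean CPM of at least 1, chosen after seeing the data, among them. It was 1, ATF4 lower, at 1.5-fold in each library (beside 9.62% of all genes), and 2, DDIT3 and ASNS higher, with 2-fold in the mean (beside 8.53%). Leaving out one replicate gave 0 to 4, the highest without replicate 3. Over all genes, 581 higher and 432 lower became 1606 and 1035 at a mean CPM of at least 0.1, 377 and 254 at 5, 1588 and 1527 at 1.5-fold, 1354 and 1074 for the mean, 1425 and 940 without replicate 3, and 378 and 282 with length and GC trends removed. The edgeR fit called 0 genes, also with RLE scaling and without a filter, and voom in limma called 0, while DESeq2's Wald test called 271. When one replicate was left out edgeR called 17 to 11177, the highest without replicate 3; the cause was not tested. Over all alternatives the mean log2 difference ran from -1.02 to -0.63 for ATF4, -0.20 to 1.36 for TRIB3, -0.24 to 1.11 for CHAC1 and 0.83 to 1.83 for DDIT3. The mean also changed direction for PSAT1 (-0.55 to 0.14), HSPA5 (-0.25 to 0.24) and XBP1 (-0.04 to 0.54). With 38 counts in the control, ASNS had the fewest of the 10 genes and the widest counting intervals. Whether its overlap with other annotated genes lowered that count was not tested.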

Other observations

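Heat shock genes of the cytosol and mitochondria, which HSF1 activates when proteins misfold outside the ER, were 2-fold lower in both replicates 1 and 2 for 5 of 10 tested, beside 5.49% of all genes, with a list median of -1.03, -1.04 and 0.06 in replicates 1, 2 and 3. HSPE1, a mitochondrial co-chaperone, fell in all 3 libraries, from 91.3 CPM in the empty vector control to 19.0, 22.3 and 38.7 CPM, and met the 2-fold rule under 6 of 7 scalings and corrections. HSPB1, a small heat shock protein, also fell, from 414 CPM to 127, 138 and 185 CPM, under 5 of 7. HSPE1 and HSPB1 were the 2 of 10 tested that were 2-fold lower in all 3 libraries, beside 2.72% of all genes. HSPA8, the constitutive cytosolic HSP70, named after its values were seen, was at 1750 CPM in the control and at 376, 376 and 2907 CPM in the replicates. Its replicate 3 was thus high where TRIB3 and CHAC1 were low. HSPA1A and HSPA1B, near-identical copies, were listed at 0 in all 4 libraries.

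Of 11 tested genes of the oxidative stress response none passed the rule, with a median of -0.57, -0.35 and -0.47; FTL, the ferritin light chain with the highest CPM of the list, had 3581 CPM against 1870, 2059 and 2579 CPM. Among 12 p53 targets the median was 0.64, 0.60 and 0.21. In replicates 1, 2 and 3, 12, 12 and 7 of them lay above the control, beside 8154, 8365 and 6868 of 15880 genes. TP53INP1, a p53-induced nuclear protein, rose from 5.62 CPM to 13.9, 15.1 and 17.6 CPM and was 2-fold higher under all 7 settings. It was the 1 of the 12 that passed the rule, beside 3.66% of all genes. CDKN1A, named after its values were seen, had 43.0 CPM in the control and 50.9, 50.9 and 27.0 CPM in the replicates.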
